A study of Homo sapiens with 12 samples.

Results

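KRT7, KRT8, KRT10, KRT18 and KRT19 are 5 of the 55 keratin genes, and of the 60617 genes in all, whose RNA was measured in 12 RNA-Seq libraries of 201B7, an established human iPSC line. They were taken by gene name, under the heading of simple epithelial keratins, with earlier results of these data known. All cells were 201B7 cells harvested on Day 5, with 3 libraries in each of 4 culture conditions. Cond 1 was the control in StemFit medium. Cond 2, labelled as low in nutrients, used StemFit that was first kept at 56 °C for 30 min. Cond 3 was a differentiation medium, DMEM with 10% FBS, MEM NEAA and GlutaMax, so it differed from Cond 1 in the basal medium as well as in serum. Cond 4, labelled as a physical stimulus, used control medium and pipetting of the cells 20 times at passage. The data come from 1 cell line, and the study calls its replicates technical in one place and describes the experiment as done in triplicate in another, so p-values measure the spread between these libraries.

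Keratins are the intermediate filament proteins of epithelial cells. A filament is built from pairs of a type I and a type II keratin, so that both types are needed for assembly, and the filaments end on desmosomes and hemidesmosomes. KRT8 and KRT18 form the first pair of the embryo and the basic pair of single-layered epithelia, and human pluripotent stem cells, which grow as an epithelial sheet, carry it too. KRT7 (type II) and KRT19 (type I) are added in ducts and other simple epithelia. KRT10 (type I) is best known from the suprabasal layers of the epidermis, where it pairs with KRT1, so the heading of simple epithelial keratins does not describe it.

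The type II genes KRT8 (ENSG00000170421, GRCh38 chromosome 12, 52897187 to 52949954, minus strand) and KRT7 (ENSG00000135480, chromosome 12, 52232520 to 52252186, plus strand) lie in the keratin cluster of chromosome 12. KRT18 (ENSG00000111057, chromosome 12, 52948871 to 52952906, plus strand) is the type I gene that lies there too, beside KRT8. KRT19 (ENSG00000171345, chromosome 17, 41523617 to 41528308, minus strand) and KRT10 (ENSG00000186395, chromosome 17, 40818117 to 40822614, minus strand) lie in the type I cluster of chromosome 17. The annotated genes of KRT8 and KRT18 overlap by 1084 bases on opposite strands. KRT10 overlaps the antisense gene KRT10-AS1, which had 152 to 242 counts per library, and KRT7 overlaps KRT7-AS, KRT86 and KRT87P, each with at most 10 counts in any library. The library kit kept the strand, but the strand setting of the counting is not given in the sources used here.

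KRT8 and KRT18 are also the members with the most processed copies in the genome, which bears on how their reads can be assigned. Among the sequence words of 31 bases in the main transcript (MANE Select), 61.1% of those of KRT8 and 74.8% of those of KRT18 also occur in other annotated genes, against 15.5% for KRT7, 11.4% for KRT19 and 1.7% for KRT10. Counting only their own pseudogenes, it was 58.6% for KRT8, 66.9% for KRT18, 9.9% for KRT19 and 0.0% for KRT7 and KRT10. The overlapping KRT7-AS alone held 12.3% of the KRT7 words. Few reads were counted on the copies. Over 50 pseudogenes of KRT8, of which 29 had any read, a library held 160 to 329 counts, or 1.93 to 4.26% of parent and copies together. Over 65 pseudogenes of KRT18, of which 23 had any read, it held 34 to 77 counts, or 0.826 to 1.86%.

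The total count per library was 16441148 to 21871503, and the members had between 391 and 9940 counts in every library, so all 5 passed the filter on low counts that left 17747 genes. TPM is the count per base of gene length, set to one common sum for every library. Of the pluripotent stem cell markers, NANOG had means of 45.9, 22.9 and 10.5 TPM in Cond 1, Cond 2 and Cond 3, SOX2 908, 1300 and 1260, and LIN28A 1690, 2120 and 1900, whereas POU5F1 was listed at 1.32 in Cond 1. Of these 10 markers, 3 rose and 5 fell in Cond 2, and 4 rose and 4 fell in Cond 3. Among all genes tested, 20.9% in Cond 2 and 38.4% in Cond 3 had an edgeR adjusted p under 0.05. The labels name skin as the tissue of origin, and the study gives skin fibroblasts as the source cells. The keratinocyte markers KRT5, KRT14, KRT1, TP63 and IVL had means of at most 0.05 TPM in every condition. The 8 keratinocyte markers summed to 0.393 to 3.59 TPM per library. COL17A1, a hemidesmosome collagen and the only one of the 8 that could be tested, rose by 1.55 ± 0.38 on the log2 scale in Cond 2 and by 2.23 ± 0.37 in Cond 3 (SE, edgeR adjusted p = 0.0043 and 4.47e-05), from a mean of 0.493 TPM to 1.56 and 2.41.

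These 5 genes made up nearly all keratin RNA of the cells. They held 99.57 to 99.93% of the TPM summed over the 55 keratin genes in each library. Of the 50 other keratin genes, 33 had no read in any library, and only KRT17, a keratin of basal and stressed epithelium, reached a mean of 1 TPM in any condition, with 1.35 in Cond 2. KRT1, the usual partner of KRT10, had a mean of at most 0.03 TPM.

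KRT18, the type I partner of KRT8, showed the largest differences among the members. Its TPM in the 3 libraries was 393, 348 and 327 in Cond 1, 243, 226 and 276 in Cond 2, 173, 187 and 189 in Cond 3, and 356, 287 and 324 in Cond 4. Every library of Cond 3 lay below every library of Cond 2, and these below all of Cond 1, while Cond 4 overlapped Cond 1. KRT18 fell by 0.61 ± 0.08 (SE, n = 3) on the log2 scale in Cond 2 against Cond 1 (edgeR quasi-likelihood test, Benjamini-Hochberg adjusted p = 3.64e-06). It fell by 0.99 ± 0.08 in Cond 3 (edgeR adjusted p = 1.43e-09), to a TPM of 51.3% of the Cond 1 mean. Between the altered media it was lower in Cond 3 than in Cond 2, with a log2 fold change of -0.38 ± 0.08 (edgeR adjusted p = 0.000509). Cond 4 against Cond 1 gave a log2 fold change of -0.16 (edgeR adjusted p = 0.804). KRT18 was called in 14 of 14 alternative analyses of each of the first 3 of these comparisons. With the counts of its pseudogenes added it kept these calls. Those counts were at most 1.86% of parent and copies together, so adding them could hardly move a call. Reads left uncounted for having several matches, if any, do not enter this check.

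KRT8, the type II partner of KRT18, was nearly level. Its TPM was 235, 244 and 203 in Cond 1, 213, 202 and 219 in Cond 2, 236, 241 and 238 in Cond 3, and 223, 218 and 223 in Cond 4. Of the 4 comparisons made, the libraries were free of overlap only in Cond 3 against Cond 2. KRT8 fell by 0.19 ± 0.06 (SE, n = 3) on the log2 scale in Cond 2 against Cond 1 (edgeR adjusted p = 0.0173), a call that 8 of 14 alternatives made. Its log2 fold change was 0.04 in Cond 3 (edgeR adjusted p = 0.606) and -0.05 in Cond 4 (edgeR adjusted p = 0.93). In Cond 3 it was higher than in Cond 2 by 0.23 ± 0.06 on the log2 scale (edgeR adjusted p = 0.00218).

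KRT7, a type II keratin of ducts and glands, had a much lower level and rose in both altered media. Its TPM was 22.6, 23.9 and 20.2 in Cond 1, 28.3, 36.2 and 27.4 in Cond 2, 31.9, 28.1 and 32.7 in Cond 3, and 23.7, 19.5 and 20.5 in Cond 4. All libraries of Cond 2 and Cond 3 lay above all libraries of Cond 1, and replicate 2 of Cond 2 was the highest of the 12. KRT7 rose by 0.38 ± 0.11 (SE, n = 3) on the log2 scale in Cond 2 (edgeR adjusted p = 0.0144) and by 0.45 ± 0.11 in Cond 3 (edgeR adjusted p = 0.00214). Without that replicate the value in Cond 2 was 0.25 (edgeR adjusted p = 0.151). Cond 3 against Cond 2 gave 0.07 (edgeR adjusted p = 0.648) and Cond 4 against Cond 1 gave -0.08 (edgeR adjusted p = 0.952).

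KRT19, the small type I keratin without a tail domain, was not called in any comparison. Its TPM was 303, 334 and 297 in Cond 1, 352, 354 and 358 in Cond 2, 341, 321 and 344 in Cond 3, and 316, 280 and 315 in Cond 4. By TPM each Cond 2 library was above each Cond 1 library, but after TMM normalization the log2 fold change was 0.10 ± 0.06 (SE, n = 3, edgeR adjusted p = 0.232). By limma on log2(TPM + 1) it was 0.19 (adjusted p = 0.0313), a scale on which the median of all genes was also higher in Cond 2, by 0.08. In Cond 3 the edgeR log2 fold change was 0.08 (adjusted p = 0.304).

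KRT10, the epidermal type I keratin, was not called either. Its TPM was 42.9, 39.4 and 45.3 in Cond 1, 35.8, 35.9 and 45.4 in Cond 2, 39.0, 37.5 and 36.1 in Cond 3, and 39.9, 38.5 and 34.5 in Cond 4. Only the libraries of Cond 3 lay wholly below those of Cond 1. The log2 fold change was -0.21 ± 0.11 (SE, n = 3) in Cond 2 (edgeR adjusted p = 0.168), -0.21 in Cond 3 (edgeR adjusted p = 0.125) and -0.19 in Cond 4 (edgeR adjusted p = 0.819).

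**Figure D1:**
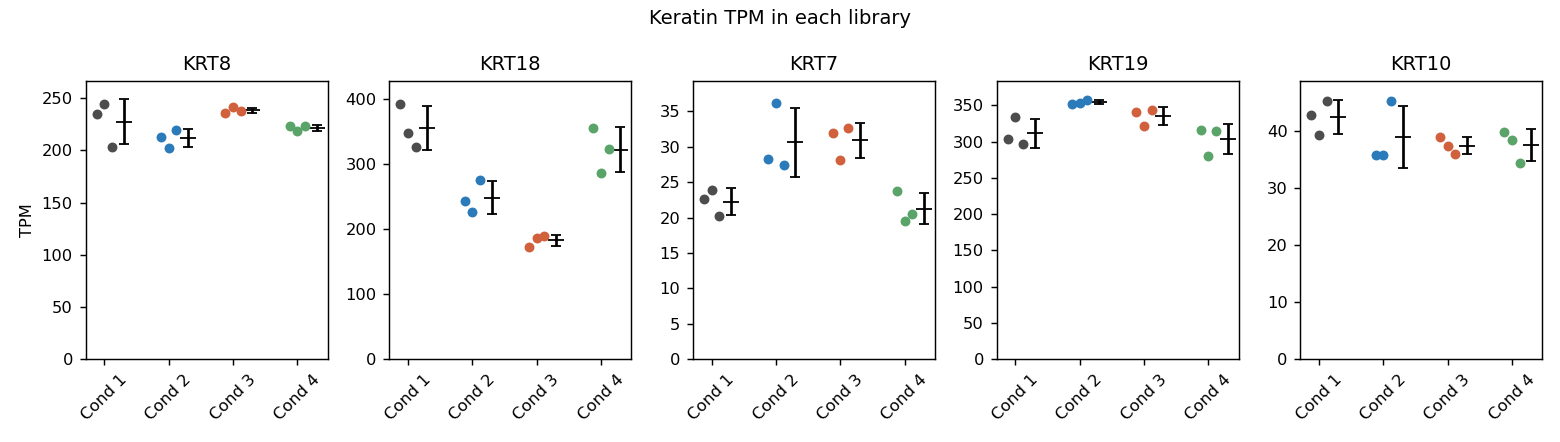
TPM of each of the 5 keratins (linear axes from 0, a separate scale for each gene) in the 3 libraries of each condition (points), with the mean and SD (bar). KRT18 steps down from Cond 1 (327 to 393 TPM) to Cond 2 (226 to 276) and Cond 3 (173 to 189), KRT7 is higher in Cond 2 and Cond 3, and Cond 4 overlaps Cond 1 for all 5.

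Counted over the members, 3 of 5 were called in Cond 2 against Cond 1, 1 higher and 2 lower, where 20.9% of all genes tested were called. In Cond 3 it was 2 of 5, 1 higher and 1 lower, against 38.4% of all genes, and in Cond 3 against Cond 2 again 2 of 5, against 38.2%. In Cond 4 it was 0 of 5, by edgeR and by DESeq2, with 0 at an unadjusted p under 0.05, where 0.0282% of all genes were called. No member passed a fold change of 2 together with the adjusted p, which 4.34% of all genes did in Cond 2, 8.16% in Cond 3, 0.0169% in Cond 4 and 8.77% in Cond 3 against Cond 2. The median log2 fold change of the 5 was -0.19 in Cond 2 and 0.04 in Cond 3, with the median of all genes within 0.01 of 0. The comparisons with Cond 1 share its libraries.

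**Figure D2:**
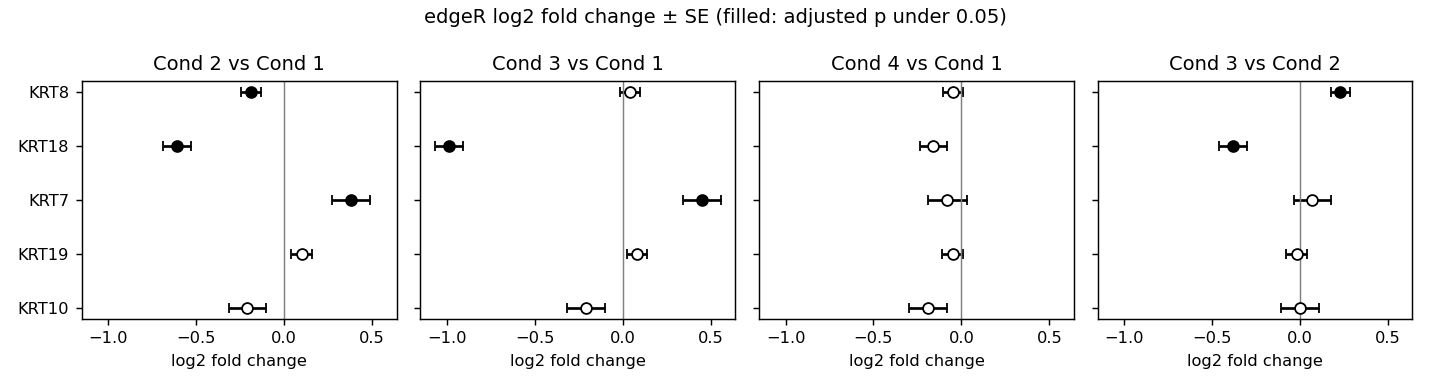
edgeR log2 fold change of each keratin (x axis, bars are 1 SE) in the 4 comparisons, 3 libraries against 3. Filled points have an adjusted p under 0.05, and KRT18 in Cond 3 is the farthest from 0, at -0.99.

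The balance between KRT18 and KRT8 was formed within each library, where library scaling cancels. The ratio of KRT18 to KRT8 TPM was 1.67, 1.43 and 1.61 in Cond 1, 1.14, 1.12 and 1.26 in Cond 2, 0.732, 0.773 and 0.795 in Cond 3, and 1.60, 1.32 and 1.46 in Cond 4. The libraries of Cond 1, Cond 2 and Cond 3 did not overlap, with means of 1.57 ± 0.129, 1.17 ± 0.075 and 0.767 ± 0.0319 (SD, n = 3). An exact two-sided permutation test gave p = 0.1 for each pair of these conditions, the smallest that 3 against 3 libraries allow, and 0.2 after adjustment over 32 tests. The summed type I to type II ratio was 2.85 ± 0.155 in Cond 1, 2.66 ± 0.0898 in Cond 2, 2.06 ± 0.0405 in Cond 3 and 2.74 ± 0.172 in Cond 4 (SD, n = 3). It was below Cond 1 in all libraries of Cond 3 and overlapped Cond 1 in Cond 2 and Cond 4.

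The sum of the 5 keratins was 960 ± 58.1 TPM in Cond 1, 884 ± 37.7 in Cond 2, 825 ± 13.5 in Cond 3 and 906 ± 58.8 in Cond 4 (SD, n = 3). KRT18 made up 37.1% ± 2.16 of this sum in Cond 1, 28.0% ± 1.68 in Cond 2 and 22.2% ± 0.991 in Cond 3 (SD, n = 3). KRT19 took 32.5% ± 1.80 in Cond 1 and 40.6% ± 1.13 in Cond 3, and KRT8 23.7% ± 0.976 and 28.9% ± 0.666. KRT10 stayed between 3.77 and 5.07% in all libraries. These sums and shares depend on the gene lengths behind the TPM, as given below.

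**Figure D3:**
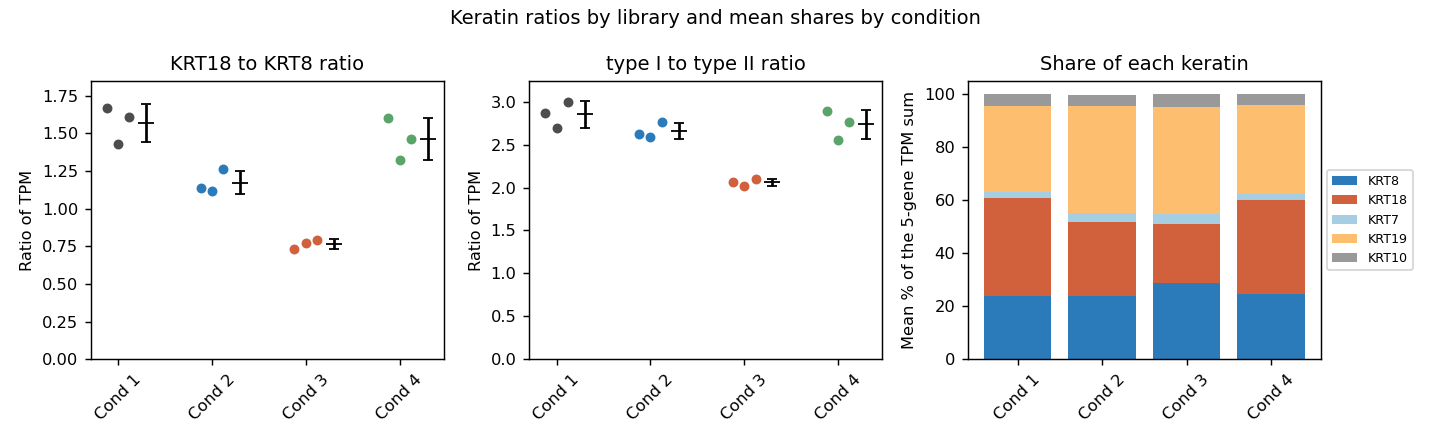
Ratio of KRT18 to KRT8 TPM and of summed type I to type II TPM in each library (points, with mean and SD), and the mean share of each keratin in the TPM sum of the 5 (stacked bars), by condition. The KRT18 to KRT8 ratio goes from 1.57 in Cond 1 to 0.767 in Cond 3, and the KRT18 share from 37.1% to 22.2%.

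The order of the levels depended on the gene length used. By TPM, KRT18 was above KRT19 and KRT19 above KRT8 in every library of Cond 1 and Cond 4, although the ranges of KRT18 and KRT19 overlapped. In Cond 3 the order was KRT19, KRT8 and KRT18, without overlap. The lengths behind the TPM join the exons of all transcripts and were 6881 bases for KRT8 and 3069 for KRT18, where the MANE Select transcripts have 1784 and 1413. In CPM per kilobase of the MANE Select transcript, a scale added after the data were seen, KRT8 was above KRT18 in every library of all conditions, with 252 ± 19.5 in Cond 1 for KRT8 (SD, n = 3). The KRT18 to KRT8 ratio was then 0.885 ± 0.0725 in Cond 1, 0.661 ± 0.0422 in Cond 2 and 0.432 ± 0.018 in Cond 3 (SD, n = 3), and the type I to type II ratio 1.44 ± 0.078 in Cond 1 and 1.00 ± 0.0226 in Cond 3. The relative change of the KRT18 to KRT8 ratio between conditions does not depend on the length, since each gene has 1 length throughout, whereas the type I to type II ratio weights its genes by length. So do the sum and the shares. By MANE Select length the sum was 654 ± 35.6 in Cond 1, 553 ± 24.8 in Cond 2, 566 ± 12.6 in Cond 3 and 619 ± 33.0 in Cond 4 (SD, n = 3). Cond 2 was then lowest and lay wholly below Cond 1. In Cond 1 KRT8 then made up 38.6% and KRT19 23.1%. The KRT18 share still fell, from 34.1% in Cond 1 to 26.1% in Cond 2 and 19.9% in Cond 3.

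Over the 12 libraries, the genes whose log2 CPM followed KRT18 most closely among 15700 were SFRP2, a secreted WNT modulator (Pearson r = 0.986), FXYD5, a regulator of the sodium pump (r = 0.98), and RMND5B (r = 0.978). SFRP2 had means of 737 TPM in Cond 1, 456 in Cond 2, 343 in Cond 3 and 688 in Cond 4. For KRT7 they were YPEL2 (r = 0.961), the actin-binding DBN1 (r = 0.945) and the cell surface protein CDON (r = 0.937). The closest to KRT8 were EIF5AL1 (r = 0.93), AC011815.1 (r = 0.927) and S100A13 (r = 0.923), and to KRT19 CRYBG2 (r = 0.933), KDM8 (r = 0.93) and MXD3 (r = 0.928). For KRT10 the best match was weaker, the protease CTSC (r = 0.854), followed by AC005476.2 (r = 0.811) and AC008752.3 (r = 0.808). Among the members themselves r was -0.81 between KRT18 and KRT7, 0.76 between KRT7 and KRT19, and 0.05 between KRT8 and KRT18. These values describe 12 libraries that share their 4 conditions.

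The other intermediate filament genes did not follow the keratins in one direction. Of 12 tested, 5 rose and 1 fell in Cond 2, and 7 rose and 2 fell in Cond 3, and the median of the 12 was 0.33 in Cond 3. For this list and those below, the share called over all genes tested was 20.9% in Cond 2 and 38.4% in Cond 3. VIM, the vimentin of mesenchymal and many cultured cells, rose by 0.52 ± 0.13 in Cond 2 (SE, edgeR adjusted p = 0.00596) and by 1.07 ± 0.13 in Cond 3 (edgeR adjusted p = 9.84e-07), from a mean of 36.5 TPM to 78.0. INA rose by 0.32 in Cond 2. NEFM, a neurofilament, fell by 0.56 in Cond 2 and rose by 0.52 in Cond 3 on the log2 scale. NEFL fell by 0.43 and BFSP1, a lens filament gene, fell by 0.99 in Cond 3.

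Of 21 tested genes of desmosomes and keratin linkers, 5 rose and 4 fell in Cond 2, and 10 rose and 4 fell in Cond 3, with medians of -0.02 and 0.11. EPPK1, a plakin that binds keratin filaments, rose by 0.62 in Cond 2 and 0.87 in Cond 3, and PLEC, the plakin plectin, rose by 0.74 ± 0.05 in Cond 3 (SE, edgeR adjusted p = 6.79e-11). The desmosomal cadherin DSC2 rose by 0.53 in Cond 2, where PKP2, a desmosomal plaque protein, fell by 0.50 and DNAJB6, a chaperone that binds keratin, fell by 0.31. In Cond 3 DSC3 fell by 0.64 and AJUBA, an adaptor of cell contacts, fell by 0.61.

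Of 26 genes of simple epithelium, junctions and polarity, 2 rose and 6 fell in Cond 2, and 7 rose and 6 fell in Cond 3, with a median of -0.07 in both. RAB25, a GTPase of apical recycling in epithelial cells, fell by 0.95 ± 0.10 in Cond 2 and fell by 1.47 ± 0.10 in Cond 3 (SE, edgeR adjusted p = 1.66e-07 and 1.28e-10), with means of 91.4, 50.2 and 33.5 TPM in Cond 1, Cond 2 and Cond 3. The tight junction gene CLDN4 fell by 0.69 in Cond 2 and rose by 0.71 in Cond 3, where CLDN3 rose by 0.51. EPCAM, the epithelial adhesion molecule, fell by 0.84 ± 0.05 in Cond 3 (SE, edgeR adjusted p = 1.6e-11). LLGL2 and MARVELD3 rose by 0.26 and 0.24 in Cond 2.

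Of 20 tested transcription factors known to act on epithelial keratin genes, 6 rose and 1 fell in Cond 2 and 3 rose and 2 fell in Cond 3. Among all genes tested, 20.9% were called in Cond 2 and 38.4% in Cond 3. TFAP2A rose by 4.84 ± 0.46 in Cond 2 (SE, edgeR adjusted p = 3.86e-08), from 0.142 to 4.25 TPM, and by 2.28 in Cond 3. GATA3 rose by 4.66 ± 0.57 in Cond 2 (SE, edgeR adjusted p = 1.59e-06), to 7.46 TPM, and ETS1 fell by 1.44 there. The Cond 2 libraries differed widely in both, with an SD of 1.87 TPM for TFAP2A and 4.2 for GATA3 (n = 3). In Cond 3 the epithelial ETS factor ELF3 rose by 1.46, while CEBPB fell by 1.40 ± 0.08 (SE, edgeR adjusted p = 2.94e-12) and FOSL1, an AP-1 subunit, fell by 1.64. In Cond 4 no tested gene of these 4 lists was called by edgeR.

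**Figure D4:**
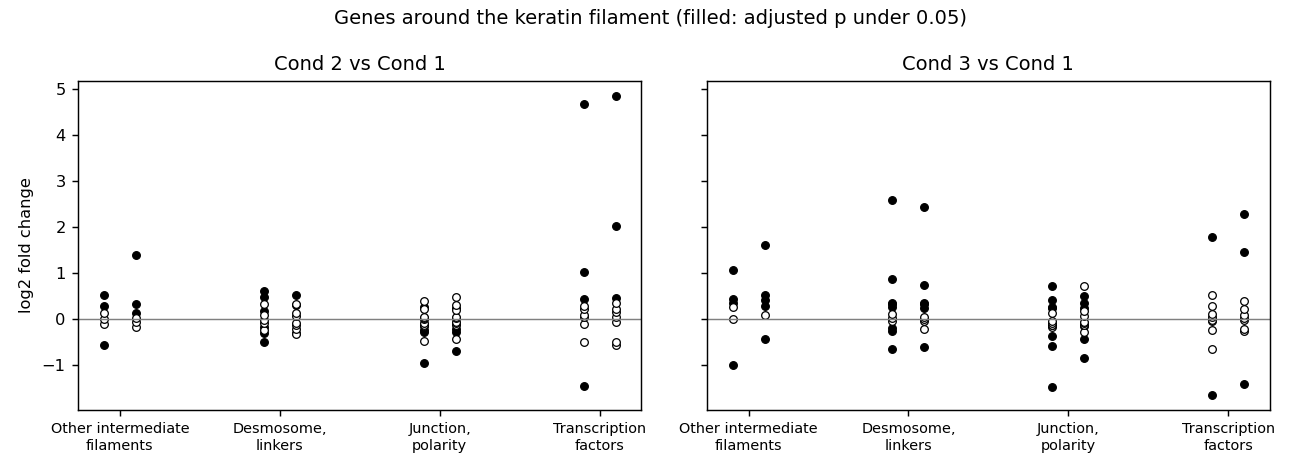
edgeR log2 fold change (y axis) of each tested gene of 4 lists in Cond 2 and Cond 3 against Cond 1, with filled points at an adjusted p under 0.05. Each list has called genes on both sides of 0, from 4.84 for TFAP2A in Cond 2 to -1.64 for FOSL1 in Cond 3.

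Markers of other cell types moved between the conditions as well. The 10 trophoblast and amnion markers summed to 42.0 to 52.8 TPM per library in Cond 1, 76.2 to 79.0 in Cond 2 and 66.9 to 72.1 in Cond 3, and 5 of 6 tested rose in Cond 2 and 4 of 6 in Cond 3, IGFBP3 by 1.07 in Cond 3. Most of these sums was IGFBP3, with means of 20.7, 28.6 and 44.6 TPM in Cond 1, Cond 2 and Cond 3, and TFAP2C, with 24.3, 35.1 and 21.0. TFAP2C and GATA3 were not called in Cond 3. CGA had a mean of at most 0.05 TPM. The 6 neuroectoderm markers summed to 20.4 to 28.9 TPM in Cond 1 and 257 to 421 in Cond 2, where SIX3 rose by 5.94 and HESX1 by 3.25 on the log2 scale. Most of the sum in Cond 2 was SIX3 and HESX1, with means of 158 and 172 TPM. PAX6 and SOX1 had means of only 0.225 and 0.259 TPM there. PAX6 was still called, with a rise of 2.2 (edgeR adjusted p = 0.0451), and SOX1 could not be tested. LHX2 (2.66 TPM) was not called (edgeR adjusted p = 0.102). In Cond 3 the 6 neuroectoderm markers summed to 43.2 to 51.1, and FABP7 rose by 1.52 and HESX1 by 0.79. The 8 fibroblast and mesenchyme markers summed to 424 to 457 TPM in Cond 1, 266 to 314 in Cond 2 and 587 to 624 in Cond 3. Most of these sums was COL1A1, with means of 246, 183 and 436 TPM in Cond 1, Cond 2 and Cond 3, and THY1, with 141, 60.4 and 48.9, and in Cond 3 COL1A2, with 110. COL1A2 was up by 1.20 and THY1 down in Cond 3. COL3A1, PDGFRB and TWIST1 were not called in Cond 2 or Cond 3, and DCN had a mean of at most 0.01 TPM in any condition. The 7 endoderm markers summed to at most 9.76 TPM in any library, with FOXA2 listed at 0 in all. The part of these markers in the keratin differences was not tested, and in bulk RNA fewer cells that carry a keratin and less of its RNA per cell cannot be told apart.

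The RefSeq promoter table (GRCh38.p14) held windows for KRT8 and KRT10. The KRT10 window has its start site at 40822614, where the annotated gene begins on the minus strand. The start site of the KRT8 window, 52926469, lies inside the annotated gene, which begins at 52949954 on that strand. Whether it is the start of the main KRT8 transcript was not checked, and other starts of KRT8 were not searched. Both windows were searched for a TATA box, an SP/KLF box and AP-1 and AP-2 motifs, and this KRT8 window held none of them. That of KRT10 contains the TATA box TATAAA, its first base at -29 from the start site, and none of the others. TATAAA is found on either strand in 11.5% of 35116 promoters of the same length.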

How the data were processed

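RNA was measured in 12 libraries of 201B7 cells, 3 for each condition. Per the labels and methods, poly(A) RNA was made into strand-specific libraries, and the authors trimmed reads (cutadapt 4.1, fastp 0.20.1), aligned them to GRCh38 with HISAT2 2.1.0 and counted them per gene with featureCounts. The authors deposited the counts without normalization, and TPM computed from them and gene length. The treatment of reads with several matches is not given in the sources used here. Among the count lines, 5 were broken and dropped, and 2042 genes of the TPM table had no count row.

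edgeR 4.0.16 (R 4.3.3) was used for TMM normalization and the quasi-likelihood test, in one fit over 12 libraries, with filterByExpr and Benjamini-Hochberg adjustment over 17747 genes. A gene was called at an adjusted p under 0.05. The study's own test was limma on TPM, used here as an alternative (limma 3.58.1), beside DESeq2 1.42.0. The SE is the log2 fold change divided by the square root of F. Shared words and coordinates come from GENCODE release 44. The shared sequences themselves are not reported here. Profile correlations used log2 CPM with a prior count of 2 in genes with a mean of at least 1 TPM. Replicates differed by more than sampling noise.

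The scripts were tested on simulated data. The share of changed genes set for passing was missed in the first run, because genes with few counts were not recovered. The criterion was changed after that run to bias, direction, recovery of well-counted genes and gross false calls. At a simulated 2-fold change, edgeR made 10 false calls beside 125 true ones, DESeq2 16 beside 131 and limma 8 beside 118. Each of these shares was above the nominal rate. At 4-fold, edgeR made 11 false calls beside 164 true ones, DESeq2 19 beside 163 and limma 4 beside 138.

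Members and gene lists were chosen with earlier results of these data known. Genes named from a list were the 2 largest rises and 2 largest falls among called genes with a mean of at least 1 TPM in Cond 2 and Cond 3; the text gives part of them. Other genes, such as CGA, DCN, KRT1, PAX6, SOX1, LHX2 and TFAP2C, were named as markers.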

Additional observations from a re-analysis of the deposited data

How the results depend on the processing

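The calls of KRT18 in Cond 2, Cond 3 and Cond 3 against Cond 2, of KRT7 in Cond 3 and of KRT8 in Cond 3 against Cond 2 were made under each alternative run. The fall of KRT8 in Cond 2 was no longer called by limma (-0.10 with either pseudocount, adjusted p = 0.245 and 0.246) or with the 6 libraries alone (-0.20, adjusted p = 0.0552), and by limma KRT19 in Cond 2 was called (0.19, adjusted p = 0.0313 and 0.0314). Differences near 0 changed sign: KRT19 in Cond 3 against Cond 2 with upper-quartile normalization (0.01) and KRT10 in the same comparison by limma (-0.048). With pseudogene TPM added, the log2 KRT18 to KRT8 ratio of Cond 3 against Cond 2 was -0.50, and the log2 type I to type II ratio -0.17 in Cond 2 against Cond 1 and -0.27 in Cond 3 against Cond 2. The added KRT8 pseudogenes had mean counts of 237 in Cond 1, 322 in Cond 2 and 205 in Cond 3, and those of KRT18 67.7, 54.3 and 45.7. The cause of the shifts in this paragraph was not tested.

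With 1 library left out in turn, 1 to 4 members were called in Cond 2, with 1 left without Cond 2 replicate 2. Log2 fold changes ranged from -0.26 to -0.14 (KRT8), 0.25 to 0.46 (KRT7) and -0.33 to -0.15 (KRT10) in Cond 2, and -0.026 to 0.092 (KRT8) in Cond 3. They ranged from -0.077 to 0.005 (KRT19) in Cond 4, and -0.011 to 0.20 (KRT7), -0.048 to 0.005 (KRT19) and -0.061 to 0.12 (KRT10) in Cond 3 against Cond 2. KRT8 in Cond 2 was not called without Cond 1 replicate 1, Cond 1 replicate 2 or Cond 2 replicate 2, and KRT7 not without Cond 1 replicate 3 or Cond 2 replicate 2. KRT10 in Cond 2 was called without Cond 2 replicate 3 (-0.33, adjusted p = 0.0417).

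With the replicate number as a block, 3, 2, 0 and 2 members were called in Cond 2, Cond 3 and Cond 4 against Cond 1 and in Cond 3 against Cond 2, as without the replicate block, and KRT18 in Cond 3 was -0.99 (adjusted p = 1.01e-09). Deviations of libraries with the same number correlated between -0.013 and 0.038, so no shift of RNA shared by number was seen. This cannot tell whether such libraries shared a plate, day or passage, which the labels do not give.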
